A study of Mus musculus with 8 samples.

Results

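The genes described here are the Hedgehog receptors, the signal transducer Smo and the Gli transcription factors of cultured mouse palatal mesenchyme: Ptch1, Hhip, Gas1, Boc, Cdon, Smo, Gli1, Gli2 and Gli3. They were chosen by name, with earlier results of these data known, and all 9 were measured among the 18193 genes of the array. Each was read from probe sets with that gene as their only symbol, 24 in all, and the brightest on average stood for the gene. Mutant cells came from embryos of genotype Tgfbr2 fl/fl; Wnt1-Cre, in which Cre recombinase removes the floxed part of the TGF-beta receptor gene Tgfbr2 in neural crest cells and their descendants. Control cells came from Tgfbr2 fl/fl embryos without Cre, so both groups carried the floxed alleles, although the control titles call them wildtype. The strain label was C57BL/6J throughout. Palatal mesenchyme was taken at embryonic day 13.5 and grown for 2 passages, and each genotype had 4 arrays.

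Hedgehog ligands bind Ptch1, which otherwise holds Smo inactive in the primary cilium. Gas1, Boc and Cdon are co-receptors that help the ligand reach Ptch1, and Hhip binds the ligand at the cell surface and keeps it from signalling. Active Smo turns the Gli factors towards their activator forms: Gli2 is the main activator, Gli3 is processed mainly into a repressor, and Gli1 is an activator that is itself a target of the pathway, as are Ptch1 and Hhip. In the growing palate the epithelium makes Sonic hedgehog and the mesenchyme beneath it responds. In human fibroblasts and keratinocytes, TGF-beta is known to induce GLI2 through SMAD3.

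The sequences just before the start sites of 3 members are shown: Smo, whose brightest probe set separated the genotypes, Ptch1, the receptor and classical target, and Gli2, the factor tied to TGF-beta in human cells. They are RefSeq sequences of build GRCm38.p6, 250 bases before each start, written in the direction of the gene. Smo lies at chr6:29735247-29735496 on the plus strand, Ptch1 at chr13:63565736-63565985 on the minus strand and Gli2 at chr1:119053620-119053869 on the minus strand. Capitals mark CCACCC, the core of the Gli consensus GACCACCCA, and CAGAC, a short element bound by Smads, on either strand.
Smo: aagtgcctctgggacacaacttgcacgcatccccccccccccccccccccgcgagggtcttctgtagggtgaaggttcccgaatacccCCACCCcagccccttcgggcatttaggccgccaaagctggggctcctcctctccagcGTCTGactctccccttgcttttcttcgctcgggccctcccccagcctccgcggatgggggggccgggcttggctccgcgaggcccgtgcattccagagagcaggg
Ptch1: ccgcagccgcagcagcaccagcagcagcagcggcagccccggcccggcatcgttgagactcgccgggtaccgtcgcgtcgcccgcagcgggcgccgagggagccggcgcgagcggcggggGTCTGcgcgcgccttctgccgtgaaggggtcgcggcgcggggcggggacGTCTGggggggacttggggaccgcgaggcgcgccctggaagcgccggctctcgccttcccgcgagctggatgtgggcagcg
Gli2: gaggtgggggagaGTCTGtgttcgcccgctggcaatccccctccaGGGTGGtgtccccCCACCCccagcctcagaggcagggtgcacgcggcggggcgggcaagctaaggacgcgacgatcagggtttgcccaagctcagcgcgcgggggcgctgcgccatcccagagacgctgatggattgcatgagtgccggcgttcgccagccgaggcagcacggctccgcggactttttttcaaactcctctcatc

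Of the 9 members, 7 had a sequence in that table, and 0 of those 7 held the full Gli consensus GACCACCCA or its reverse complement within 250 bases, as 0.225% of all 32851 promoters did. The core CCACCC stood in 4 of the 7 (Gli2, Smo, Hhip and Gli3) against 28.1% of all promoters, and Gli2 held it at 2 places. The element CAGAC stood in 4 of the 7 (Gli2, Smo, Gli3 and Ptch1) against 42.2% of all promoters, and Ptch1 held it at 2 places. The motifs did not overlap in the printed sequences. A match of letters is not a binding site, and the array did not measure binding.

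The labels number the samples but do not tie them to separate embryos, so the p-values reflect only how these samples spread, which may be partly technical. Palatal mesenchyme markers were bright, with 11 of 12 above the array's median (6.94) on all 8 arrays, but so were 20 of 21 markers of macrophages and leukocytes. The macrophage list averaged 13.20 to 13.25 on mutants 1 to 3 and 11.21 on mutant 4, against 12.42 and 12.62 on controls 1 and 2 and 11.22 and 11.05 on controls 3 and 4. Macrophages do not descend from neural crest, so Wnt1-Cre is not active in them. The brightest Tgfbr2 probe set read 12.42 ± 0.47 in mutant and 12.04 ± 0.40 in control cells (SD, n = 4 each, adjusted p = 0.538 in limma), and whether its probes lie in the deleted part is not known here, so it does not check the labels. Over all genes 16 passed at an adjusted p under 0.05. The labels name no batch. The bioB probe sets, which read an RNA spiked in before hybridisation, averaged 6.34 to 6.52 on replicates 1 and 2 of both genotypes (the low-bioB arrays) and 8.24 to 8.79 on replicates 3 and 4 (the high-bioB arrays), and differences are also given within each.

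No member passed the test between genotypes. In limma, with adjustment over all genes, 0 of 9 passed, where 0.0879% of all genes did, and 1 of 9, Smo, had an unadjusted p under 0.05, where 15.5% of all genes did. Smo was also the only member whose 4 mutant arrays did not overlap the 4 control arrays, a separation seen in 8.07% of all genes. Differences, mutant minus control on the log2 scale, were negative for 5 members and positive for 4, with a median of -0.16 against -0.01 for all genes. The members' median was -0.36 without mutant 4 and -0.06 without mutant 1. For 8 of the 9 the difference was smaller than the larger of the 2 groups' SDs.

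**Figure D1:**
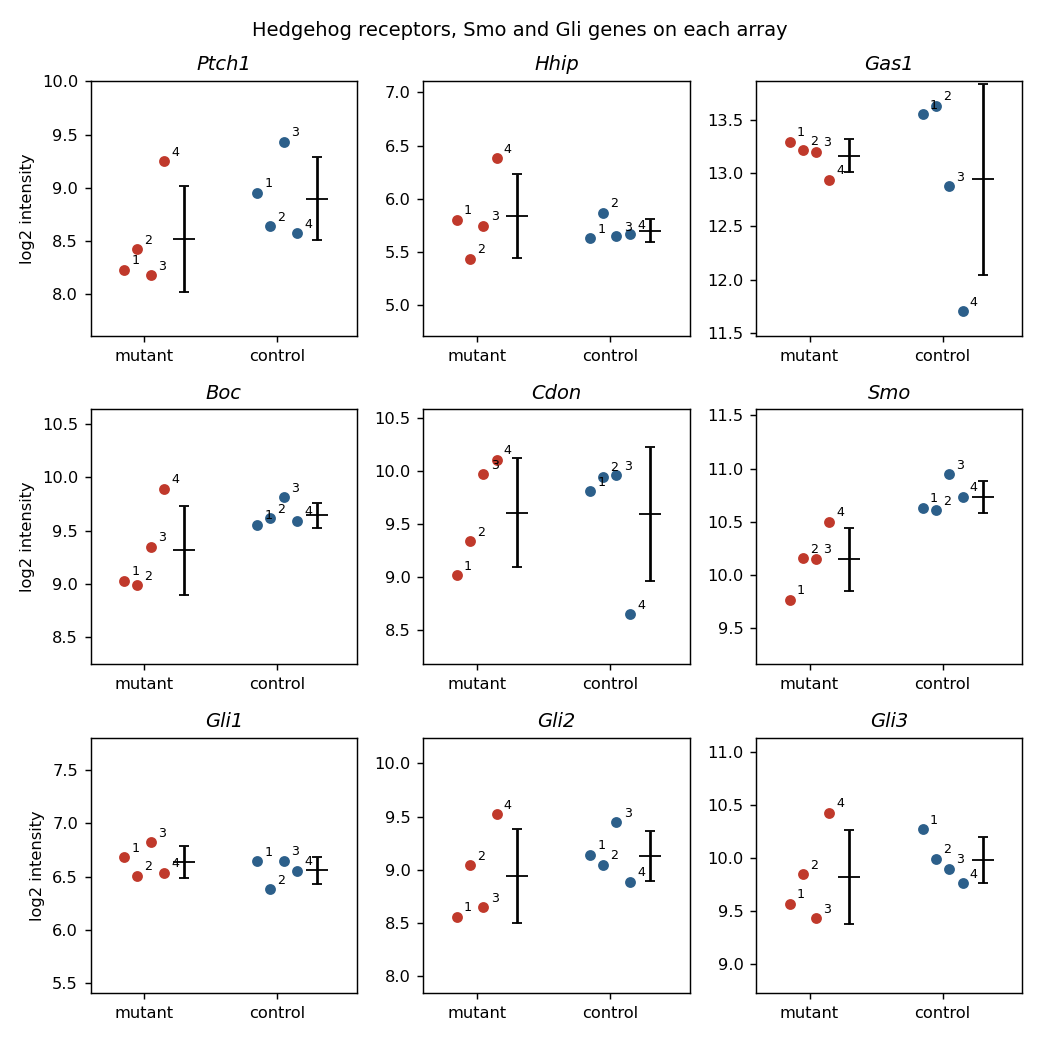
Log2 intensity of the brightest probe set of each of the 9 genes on the 4 mutant (left, red) and 4 control (right, blue) arrays. Points carry the replicate number and bars show the mean and SD of 4 arrays, with the same span of log2 units in each panel. For Smo every mutant point lies below every control point, and for the other 8 genes the groups overlap.

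Smo, the membrane protein that carries the signal into the cell, was lower on every mutant array. Its brightest probe set read 9.77, 10.16, 10.15 and 10.50 on mutants 1 to 4, against 10.63, 10.61, 10.94 and 10.74 on controls 1 to 4. The highest mutant array, mutant 4, was thus still below the lowest control array, control 2. The means were 10.14 ± 0.30 in mutant and 10.73 ± 0.15 in control cells (SD, n = 4 each), a difference of -0.59 (SE 0.15) or 0.666-fold, with a 95% interval of 0.522 to 0.851. This gave an adjusted p of 0.189 in limma (0.00486 unadjusted).

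The other probe sets of Smo were less uniform. Like the brightest, the second had Smo as its only symbol, but it lacks the brightest's "_s" suffix of probes that can match several transcripts. The second read 8.70, 9.07, 9.61 and 10.26 on mutants 1 to 4, against 9.71, 9.67, 10.59 and 10.21 on controls 1 to 4. Here mutant 4 lay above 3 of the 4 controls, and the difference was -0.63 (SE 0.35, adjusted p = 0.448 in limma over probe sets). The dimmest Smo probe set lay well below the median, at 4.45 to 4.53 on mutant and 4.34 to 4.60 on control arrays, and differed by -0.01.

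The difference in the brightest Smo probe set had the same sign within both bioB divisions, -0.66 on the low-bioB and -0.51 on the high-bioB arrays. It kept that sign in all 23 alternative settings, from -0.70 to -0.41. It passed without mutant 4 (-0.70, adjusted p = 0.0280 in limma), where 7.23% of all genes passed, with array weights (-0.62, adjusted p = 0.0287), where 8.08% did, and on the low-bioB arrays alone (-0.66, adjusted p = 0.0338), where 11.5% did. Mutant 4 was the mutant array lowest in macrophage markers. With the macrophage level of each array in the fit the brightest Smo probe set differed by -0.41 (SE 0.13, adjusted p = 0.192 in limma). In that fit the second Smo probe set differed by -0.16 (SE 0.22, adjusted p = 0.744 in limma over probe sets). The second was negative in all 20 alternatives run on it, from -0.92 to -0.16. In RNA of whole cultures, fewer cells of a type and less RNA per cell cannot be told apart.

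Ptch1, the receptor and readout of the pathway, differed by less than its spread. It read 8.23, 8.42, 8.18 and 9.25 on mutants 1 to 4, against 8.95, 8.63, 9.43 and 8.57 on controls 1 to 4. Mutants 1 to 3 lay below all controls, while mutant 4 lay above 3 of them. The means were 8.52 ± 0.50 in mutant and 8.90 ± 0.39 in control cells (SD, n = 4 each), a difference of -0.38 (SE 0.28, adjusted p = 0.541 in limma). It was -0.62 without mutant 4 and -0.20 without control 3. With the macrophage level in the fit it was -0.07, and the other 2 Ptch1 probe sets, both dimmer, differed by 0.08 and 0.09. The 95% interval for the brightest ran from 0.496-fold to 1.19-fold.

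Hhip, the ligand-binding inhibitor, was dim on every array, and its 4 probe sets differed in size and in overlap. The brightest by a small margin read 5.80, 5.43, 5.74 and 6.38 on mutants 1 to 4, against 5.62, 5.87, 5.64 and 5.66 on controls 1 to 4, which overlapped, with a difference of 0.14 (SE 0.18, adjusted p = 0.753 in limma). The next brightest read 5.93, 5.69, 5.93 and 6.52 on mutants 1 to 4, against 5.49, 5.45, 5.19 and 5.59 on controls 1 to 4. On that probe set every mutant array was above every control array, with a difference of 0.59 (SE 0.18), an unadjusted p of 0.00913 and an adjusted p of 0.224 in limma over 45037 probe sets. It was 0.34 on the low-bioB and 0.84 on the high-bioB arrays and positive in all 20 alternatives run on it. With the macrophage level in the fit both differences were larger. The brightest then differed by 0.31 (SE 0.18, adjusted p = 0.403 in limma). The next brightest differed by 0.76 (SE 0.17, adjusted p = 0.144 in limma over probe sets). The other 2 Hhip probe sets differed by 0.25 and 0.11, so that all 4 were positive, and mutant 4 was the highest array on each. Among the 24 probe sets of the members, the next brightest of Hhip and the brightest of Smo were the 2 without overlap, against 7.56% of all probe sets.

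**Figure D2:**
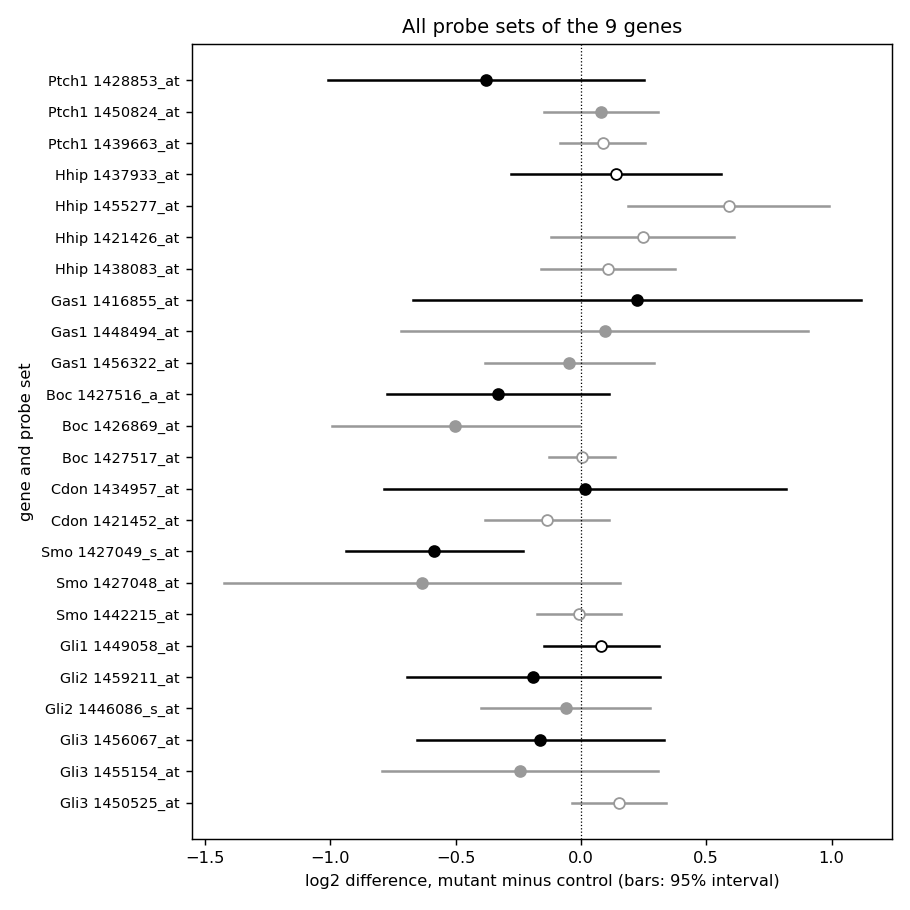
Log2 difference, mutant minus control, for all 24 probe sets of the 9 genes, with 95% intervals from limma. Black marks the probe set that stands for the gene, grey the others, and open circles have a mean below the median of all probe sets. The intervals of the brightest Smo (-0.94 to -0.23), the second Boc (-0.99 to -0.01) and the second Hhip probe set (0.19 to 0.99) lie to one side of 0 before adjustment.

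The co-receptors did not behave alike across arrays. Boc, an immunoglobulin superfamily co-receptor, read 9.03, 8.99, 9.35 and 9.89 on mutants 1 to 4, against 9.56, 9.61, 9.82 and 9.59 on controls 1 to 4. Mutants 1 to 3 lay below every control and mutant 4 above every control. The difference was -0.33 (SE 0.19, adjusted p = 0.444 in limma), and -0.52 without mutant 4 (adjusted p = 0.0407), where it passed. A second probe set of Boc differed by -0.50 (SE 0.22, unadjusted p = 0.0471 and adjusted p = 0.346 in limma). On the low-bioB arrays the brightest differed by -0.58 and on the high-bioB arrays by -0.08, and with the macrophage level in the fit by -0.10 (adjusted p = 0.764).

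Cdon, a co-receptor closely related to Boc, read 9.02, 9.34, 9.96 and 10.10 on mutants 1 to 4, against 9.81, 9.94, 9.96 and 8.65 on controls 1 to 4. On this probe set, the brightest, control 4 was the lowest of all arrays, far below the other controls, and mutant 1 was the next lowest. The difference over 8 arrays was 0.02 (SE 0.35, adjusted p = 0.987 in limma), the mean of -0.70 on the low-bioB and 0.73 on the high-bioB arrays. Without control 4 it was -0.30. The other Cdon probe set, with a mean below the median, did not have control 4 lowest. It read 6.72 there, against 6.69 to 6.86 on the mutant arrays and 6.76 to 7.17 on the other controls. Its difference was -0.13 (SE 0.11). On the low-bioB arrays alone, only replicates 1 and 2 of each genotype, Cdon passed at an adjusted p of 0.0231 in limma. It was one of 3 members that did there, with Boc and Smo, where 11.5% of all genes passed. The macrophage list averaged 13.22 and 13.20 on those mutant arrays, against 12.42 and 12.62 on those controls.

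Gas1, a co-receptor anchored to the membrane by a lipid, was bright, at 13.30, 13.22, 13.20 and 12.94 on mutants 1 to 4, against 13.56, 13.64, 12.88 and 11.70 on controls 1 to 4. On this probe set, the brightest, controls 1 and 2 were above every mutant array, and control 4 was the lowest. The difference was 0.22 (SE 0.39, adjusted p = 0.822 in limma), -0.19 without control 4, and -0.34 on the low-bioB and 0.78 on the high-bioB arrays. A second probe set gave 10.15 on control 4, against 11.38 to 11.59 on the mutant arrays and 11.40 to 11.91 on the other controls. The third and dimmest gave 7.34 on control 4, against 7.28 to 7.76 on the mutant arrays and 7.42 to 7.83 on the other controls. Its difference was -0.05, and mutant 3 was its lowest array. Pdgfra, a receptor that marks palatal mesenchyme, was lowest on control 4, at 10.10. Pdgfra read 12.58 to 12.98 on the mutant arrays and 12.23 to 12.62 on the other controls. It was picked after its values were seen, and it is the only 1 of the 12 mesenchyme markers that was lowest of all 8 arrays on control 4, while 7 of the 12 were lowest there among the 4 controls. Without Pdgfra the marker mean was 11.79 to 12.51 on the mutant arrays, against 12.12 on control 4 and 12.27 to 12.42 on the other controls. The part of these markers in the values of Cdon and Gas1 was not tested.

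Gli1, the activator that reports pathway activity, was close to flat. It read 6.69, 6.51, 6.83 and 6.54 on mutants 1 to 4, against 6.64, 6.38, 6.65 and 6.55 on controls 1 to 4, all below the median of the array's probe sets. Its range over the 8 arrays, 0.44, was the smallest of the 9 members. The difference was 0.08 (SE 0.10, adjusted p = 0.734 in limma), 0.08 within each bioB division and 0.02 to 0.12 with 1 array left out. Its 95% interval, 0.902-fold to 1.24-fold, was the narrowest of the members, but a probe set this dim can understate a change.

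Gli2, the main activator, read 8.56, 9.04, 8.65 and 9.52 on mutants 1 to 4, against 9.14, 9.05, 9.45 and 8.89 on controls 1 to 4. The groups overlapped and mutant 4 was the highest of all arrays. The difference was -0.19 (SE 0.22, adjusted p = 0.715 in limma), a 0.877-fold level with an interval of 0.619 to 1.24. It was -0.38 without mutant 4 and -0.06 without mutant 1, and -0.30 on the low-bioB and -0.08 on the high-bioB arrays. The second Gli2 probe set differed by -0.06.

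Gli3, the main source of repressor, read 9.57, 9.85, 9.43 and 10.43 on mutants 1 to 4, against 10.27, 9.99, 9.90 and 9.76 on controls 1 to 4. Mutants 1 and 3 lay below every control and mutant 4 above every control. The difference was -0.16 (SE 0.22, adjusted p = 0.758 in limma), with an interval of 0.635-fold to 1.26-fold. It was -0.36 without mutant 4 and -0.03 without mutant 3, and -0.42 on the low-bioB and 0.10 on the high-bioB arrays. A second probe set gave -0.24 and the dimmest 0.15. With the macrophage level in the fit the differences were 0.03 for Gli2 and -0.01 for Gli3.

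**Figure D3:**
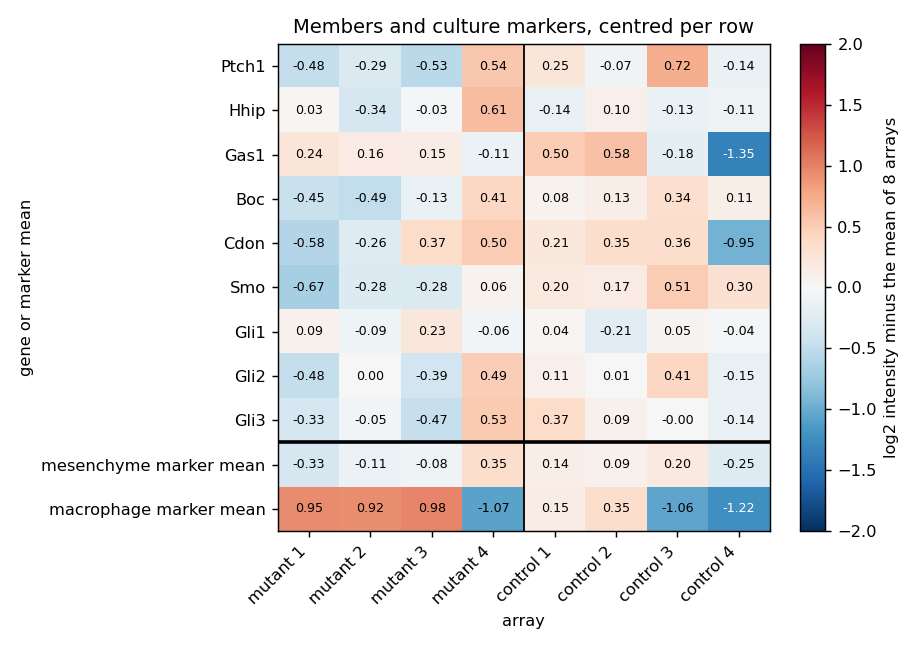
Log2 intensity of each member on each array minus its mean over the 8 arrays, with mutant arrays left and control arrays right of the line, and below them the same for the means of the mesenchyme and macrophage marker lists. Mutant 4 is above the mean for every member but Gas1 and Gli1 and low in macrophage markers (-1.07), and control 4 is low for Gas1 (-1.35) and Cdon (-0.95).

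The highest array was the same for several members. Mutant 4 was the highest of the 8 arrays for Hhip, Boc, Cdon, Gli2 and Gli3, and control 3 for Ptch1 and Smo. Mutant 4, control 3 and control 4 were the arrays lowest in macrophage markers, all 21 of which had positive differences between genotypes (median 0.81). The mean of all 12 mesenchyme markers, Pdgfra included, was 11.87, 12.09, 12.12 and 12.55 on mutants 1 to 4, against 12.34, 12.30, 12.41 and 11.95 on controls 1 to 4. With that mean as a covariate, chosen after seeing the data, Smo differed by -0.52, Ptch1 by -0.25 and Boc by -0.24, none past the threshold.

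Genes with the most similar profile were sought among those brighter than the median, by the root mean square distance between log2 profiles over 8 arrays after centring each gene. Nearest to Smo were the collagen gene Col5a1 (0.06), the tyrosyl-tRNA synthetase gene Yars (0.07) and the mannosyltransferase gene Alg3 (0.07), against a spread of 0.36 for Smo itself. Nearest to Ptch1 were Nrp2, a semaphorin co-receptor (0.10), the mesenchymal growth factor receptor gene Pdgfrb (0.10) and the magnesium transporter gene Slc41a1 (0.11), against a spread of 0.43. For Gli1, whose spread was 0.12, the nearest were Dhx35 (0.05), Acer3 (0.07) and Chm (0.07). How many other genes lay about as near was not counted. These distances describe 8 arrays that share culture makeup and the bioB division.

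**Figure D4:**
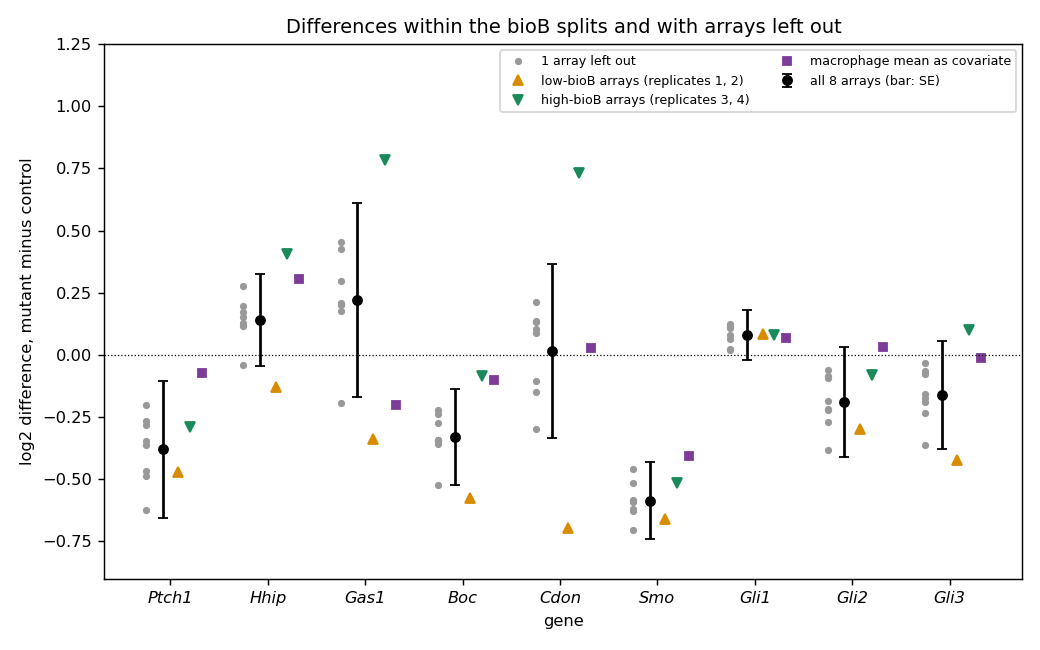
Log2 difference, mutant minus control, of each of the 9 genes with all 8 arrays (black, bar SE), with each array left out in turn (grey), within the low-bioB (up triangle) and high-bioB (down triangle) arrays, and with the macrophage marker mean as a covariate (square). Smo is below 0 throughout, from -0.70 to -0.41, while Cdon runs from -0.70 to 0.73 and Gas1 from -0.34 to 0.78.

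Other genes of the pathway were read from lists, also chosen with earlier results of these data known. All 8 genes for ligands and their release were measured, and 0 passed in limma, with 1 lower and 0 higher at an unadjusted p under 0.05 and a median difference of -0.11. Over all genes that threshold was reached by 9.69% lower and 5.84% higher. That gene was Hhat, whose enzyme attaches palmitate to Hedgehog ligands, at 6.91, 7.29, 7.26 and 7.55 on mutants 1 to 4, against 7.65, 7.51, 8.20 and 8.10 on controls 1 to 4. Only mutant 4 reached into the control range, and the difference was -0.61 (SE 0.19, adjusted p = 0.211 in limma). Disp1, which releases the ligand from the cells that make it, differed by -0.33, Scube2 by -0.13 and the ligand gene Dhh by -0.08. With the macrophage level in the fit Hhat differed by -0.37, Disp1 by -0.15, Scube2 by -0.17 and Dhh by -0.03. Shh itself was dim, at 5.60 to 5.99 on mutant and 5.55 to 5.87 on control arrays.

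Of 29 genes for Smo and Gli processing and the cilium, 25 were measured. In limma 0 passed, with 1 lower and 0 higher at an unadjusted p under 0.05 and a median of -0.07. Over all genes 9.69% were lower and 5.84% higher at that threshold. Tulp3, which carries receptors into the cilium, differed by -0.48 (SE 0.19, adjusted p = 0.285 in limma), with -0.58 on the low-bioB and -0.38 on the high-bioB arrays. Evc2, which binds Smo at the base of the cilium, differed by -0.39, the ciliary receptor gene Gpr161, an inhibitor of the pathway, by -0.43, and the kinase gene Stk36 by 0.28. With the macrophage level in the fit Tulp3 differed by -0.23, Evc2 by -0.15, Gpr161 by -0.18 and Stk36 by 0.35.

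Of 28 genes listed as Hedgehog targets in mesenchyme, 27 were measured and 0 passed in limma, with 5 lower and 1 higher at an unadjusted p under 0.05. Over all genes that threshold was reached by 9.69% lower and by 5.84% higher. The genotypes did not overlap for 2 of the 27, both lower, where 8.07% of all genes did not overlap in either direction. The median was -0.20, and 17 of 27 were negative, where 51.7% of all genes were. Of the markers of chondrocytes and osteoblasts, 6 of 8 were measured, all 6 differences were negative (median -0.35), and 0 passed in limma. Their mean was 6.85 to 6.96 on the mutant arrays, against 6.94 to 7.53 on the control arrays. The chondrocyte factor gene Sox9 differed by -1.04 and the cartilage collagen gene Col2a1 by -0.67. These 2 of the 6 did not overlap between genotypes, where 8.07% of all genes did not. The part of this list in the targets' values was not tested. Foxc1, a forkhead factor of craniofacial mesenchyme, read 7.91, 8.53, 8.33 and 8.88 on mutants 1 to 4, against 9.60, 9.57, 9.49 and 9.30 on controls 1 to 4. The groups did not overlap, and the difference was -1.08 (SE 0.19, adjusted p = 0.124 in limma), -1.36 on the low-bioB and -0.79 on the high-bioB arrays, and -0.96 with the macrophage covariate. Bmp2, a growth factor of palatal mesenchyme and epithelium, differed by -1.62 (SE 0.43, adjusted p = 0.189 in limma). The repressor gene Snai1 differed by -0.78 (SE 0.22, adjusted p = 0.192 in limma). Both were negative within each bioB division, but both overlapped between genotypes, with mutant 4 above control 4. With the macrophage covariate Bmp2 differed by -1.25, Snai1 by -0.63 and Prdm1 by 0.66. Prdm1, a transcriptional repressor also expressed in macrophages, differed by 0.99 (SE 0.27), at 7.62, 7.38 and 7.24 on mutants 1 to 3 and 6.28 on mutant 4, against 5.96 to 6.33 on the control arrays. These targets are known to respond to other signals too.

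**Figure D5:**
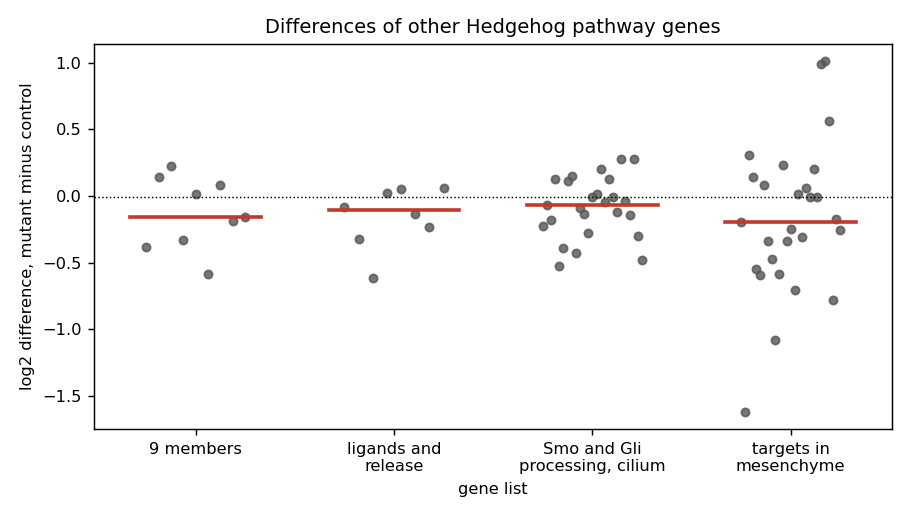
Log2 difference, mutant minus control, of the 9 members and of the measured genes of 3 further lists (8, 25 and 27 genes), 1 point per gene, with the median of each list as a red line and that of all genes (-0.01) dotted. The list medians are -0.16, -0.11, -0.07 and -0.20, and 0 of the points passed the test.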

How the data were processed

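Total RNA was labelled with biotin by the standard Affymetrix protocol, per the labels' protocols. The authors deposited log2 intensities, 1 per probe set, made with RMA per the submitters' processing notes, which give no version. They ran from 3.21 to 15.18 and were used as deposited. Of 45101 probe sets, 64 were array controls and 34945 had 1 gene symbol. For 34741 of those the Entrez identifier was found in RefSeq, and the RefSeq symbol was used whether or not it differed. Each of 18193 genes was its probe set with the highest mean.

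Mutant minus control differences came from limma 3.58.1 (R 4.3.3, two-sided, without covariates), adjusted with Benjamini-Hochberg over all genes, threshold 0.05. SE values and 95% intervals are limma's moderated ones. The number of arrays limits the precision. On simulated data of 18193 genes, calls were made for 67% of 100 genes with a log2 change of 1. They were made for 95% of 100 with a log2 change of 2, with 4 false calls among 166. Recovery of a log2 change under 1 was not tested, and the largest difference of a member was -0.59 (Smo). Whether these figures hold for the real arrays, which differ in macrophage markers, was not tested either.

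The members and lists were chosen with earlier results of these data known. Named were the members, up to 4 genes with the smallest p of each pathway list, Tgfbr2 and the 3 nearest profiles of Gli1, Ptch1 and Smo. Shh, Pdgfra, Sox9, Col2a1, Sfrp1, Sfrp2 and Foxd1 were named after their values were seen. The labels give no batch. Arrays were divided at the widest gap in their bioB controls and, separately, in their poly-A controls. Alternatives changed the scaling, the probe set rule, the filter on dim genes, the variance model, array weights, blocks and covariates, or left out each array.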

Additional observations from a re-analysis of the deposited data

Results flagged for a closer look

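In 48 groups of 4 arrays (24 probe sets of the members in 2 genotypes), 4 had 1 array far from the other 3, and chance gives about 1 in 20 groups. The brightest probe set of Cdon read 8.65 on control 4, against 9.81 to 9.96 on the other controls. A second probe set of Boc read 8.59 on control 4, against 8.91 to 8.95 on the other controls. A second probe set of Gas1 read 11.59 on mutant 3, against 11.38 to 11.39 on the other mutants. The brightest probe set of Hhip read 5.87 on control 2, against 5.62 to 5.66 on the other controls.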

How the results depend on the processing

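Smo, Ptch1 and Boc kept a negative difference and Gli1 a positive one in every alternative that gave them a value. Gli1 and Hhip have no value with dim genes left out. The count of all genes past the threshold was 16. It became 1 with every probe set tested, 1470 with array weights, 2 with the poly-A division as a block, 2085 on the low-bioB and 0 on the high-bioB arrays alone, 39 with the macrophage covariate and 2826 at an unadjusted p under 0.05. Leaving out 1 array gave 0 (mutant 1, mutant 2 or control 1) to 1316 (mutant 4). The count of members, 0, became 1 with array weights (Smo), 3 on the low-bioB arrays (Boc, Cdon and Smo), 1 at an unadjusted p under 0.05 (Smo) and 0 to 2 with 1 array left out, 2 being Boc and Smo without mutant 4. The members' median, -0.16, turned to 0.0789 on the high-bioB arrays and was -0.42 on the low-bioB arrays, -0.38 with array weights, -0.0713 with probe sets averaged, -0.0130 with the macrophage covariate, -0.0650 with the mesenchyme covariate and -0.36 (without mutant 4) to -0.0612 (without mutant 1) with 1 array left out.

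The labels do not say whether replicate numbers pair the arrays. Deviations of same-numbered arrays from their group means correlated at 0.47, 0.42, -0.09 and 0.37 over genes, and not every array correlated best with its own number. These correlations cannot settle pairing, because the arrays also differ in macrophage markers and bioB level. With a replicate block 0 genes and 0 members passed.

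Cdon turned to -0.0158 with arrays centred, -0.0591 with probe sets averaged, -0.38 with array weights, -0.16 with the poly-A block and -0.70 on the low-bioB arrays, and ran from -0.30 (without control 4) to 0.21 with 1 array left out, negative also without mutant 3 or mutant 4. Gas1 turned to -0.16 with array weights, -0.34 on the low-bioB arrays and -0.20 with the macrophage covariate, and ran from -0.19 (without control 4) to 0.45. Its second probe set gave -0.22, -0.52 and -0.22 in the same settings and ran from -0.30 (without control 4) to 0.28. Hhip turned to -0.0215 with array weights and -0.13 on the low-bioB arrays, and ran from -0.0401 (without mutant 4) to 0.28. Gli3 turned to 0.10 on the high-bioB arrays and its second probe set to 0.0409 with the macrophage covariate, where Gli2 turned to 0.0317. The causes of these turns were not tested. Dim probe sets, among them those of Gli1 and Hhip, limit what a small difference can show.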

Other observations

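Control 4 was lowest for further listed genes beside Pdgfra and the brightest probe sets of Gas1 and Cdon. Macrophage, epithelial and bone markers were among them. The 3 given here were picked after their values were seen. The secreted Wnt antagonist genes Sfrp1 and Sfrp2 read 9.37 and 9.21 on control 4. On the mutant arrays Sfrp1 read 12.25 to 12.71 and Sfrp2 12.27 to 12.72, and on the other controls 11.97 to 12.44 and 12.27 to 13.10. The forkhead gene Foxd1 read 6.68 on control 4, against 8.08 to 9.43 on the mutant arrays and 8.93 to 9.49 on the other controls. On control 4, Smo was 0.30 and Boc 0.11 above its own mean over the 8 arrays, and Gli2 and Gli3 differed from theirs by -0.15 and -0.14.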
